A study of Mus musculus with 8 samples.

Results

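Epithelial cells hold together through tight junctions, desmosomes, adherens junctions and gap junctions, and 40 genes that build these junctions or set apical-basal polarity were followed here across sorted mouse skin keratinocytes. The genes were chosen by name, and each was read from the probe set that carries its symbol alone. All 40 were on the array, out of 19938 named genes, each with 1 such probe set. Testing required a log2 level of 7.70, the median over all named genes, on at least 2 of the 8 arrays, and 38 of the 40 met it. Cldn7 and Pkp2 stayed under that level on all 8 arrays.

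The arrays came from back skin of CD1 mice aged 8 weeks, of mixed sex, either wild type or K14Snail. The K14Snail line carries Snail, a transcriptional repressor of epithelial genes, under the keratin 14 promoter, which is active in basal keratinocytes and follicle cells. Cells were selected with magnetic beads for CD34, which marks bulge cells of the hair follicle, or for the Mts24 antigen, which the upper follicle carries on the Plet1 product. The 8 groups were the negative and positive cells of either sort from either genotype, with 1 array each, and the negative cells served as controls of the positive ones. The cells were pooled from 11 mice for each CD34 array and from 9 mice for each Mts24 array.

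In a stratified epithelium, desmosomes anchor keratin filaments at spots along the membrane and give the tissue its strength. Tight junctions, made of claudins, occludin and the ZO scaffold proteins, seal the space between cells of the granular layer, and polarity complexes place those seals. Snail family factors bind E-box sequences, and E-cadherin, claudin, occludin and Crb3 promoters are among the targets described for them in cultured epithelial cells.

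Labels were checked first. On the log2 scale Snai1 lay at 7.86 to 8.16 with the wild type genotype and at 10.84 to 11.04 with K14Snail. The keratinocyte keratins Krt5 and Krt14 lay at 13.68 to 13.87 and 13.28 to 13.80 over the 8 arrays. Cd34 and Plet1 each rose in the positive fraction of their own sort, and Cd34 rose in the Mts24 sort too (1.57, adjusted p = 0.00927). Bulge markers rose in both sorts, 9 of 9 with CD34 (median 2.38) and 8 of 9 with Mts24 (median 1.43). Of 7 upper follicle markers 0 rose with CD34 and 7 with Mts24. Of all tested genes 13.4% rose with CD34 and 12.8% with Mts24. These lists include Cd34 and Plet1, the genes of the sorted antigens, whose rise in their own sort is a check alone. Tcf7l1, a bulge marker, reached the filter level on positive arrays alone, so its rise is a description. Markers of other cells also passed the filter: 11 of 12 for myeloid and Langerhans cells, 5 of 7 for T cells, 5 of 7 for melanocytes, 4 of 7 for fibroblasts and 0 of 6 for endothelium. Array medians lay between 7.32 and 7.42, and with 1 array per group the number of arrays limits the precision.

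K14Snail cells were set against wild type cells over the 4 fractions to ask how the junction genes stood where Snail was raised. Most differences were small and negative, with medians of -0.47 over the polarity, -0.52 over the apical trafficking and -0.24 over the tight junction membrane genes. The median was -0.01 over the desmosomal plaque genes, 0.23 over the desmosomal cadherins and 0.10 over the catenins. That of the gap junction genes, 0.30, was the value of Gjb6, which entered the test through the group where it was high. Pard6b, the polarity adaptor that links Cdc42 to atypical protein kinase C, was the single member past the threshold, lower by 1.53-fold (log2 difference -0.62 ± 0.07, moderated SE, limma adjusted p = 0.0477, 4 pairs of arrays). That is 1 of 38 members, or 2.63%, where 0.382% of all 10720 tested genes passed, and 0 members passed upward, where 0.177% of all genes did. The median difference was -0.13 over the 38 members and 0.03 over all tested genes, and 25 members had a negative mean. Without any 1 of the arrays Pard6b no longer passed (adjusted p = 0.0884 to 0.164), while its difference stayed between -0.68 and -0.57. It was -0.59 in the CD34 arrays alone (adjusted p = 0.545) and -0.64 in the Mts24 arrays alone (adjusted p = 0.171). With the pool as a random block the adjusted p of Pard6b was 0.0246 at the estimated correlation of -0.175 and 0.114 at a correlation of 0.2.

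The sign of the difference was followed over the fractions. Of the 38 tested members 14, or 36.8%, were lower in K14Snail in all 4 fractions, where 12.6% of all tested genes were. The 4 members higher in all 4 fractions, 10.5%, stand beside 18.9% of all genes. The 14 were Cldn23, Ocln, Marveld2, Marveld3, F11r, Tjp3, Pard6b, Crb3, Llgl2, Rab25, Gja1, Jup, St14 and Spint1, and the 4 were Dsg3, Gjb2, Ctnna1 and Ctnnb1. The fractions of a sort may share mice, so the 4 pairs need not be independent. Over 3 fractions, each left out in turn, 15 to 17 members were lower in all, against 15.8% to 19.4% of all genes.

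**Figure D1:**
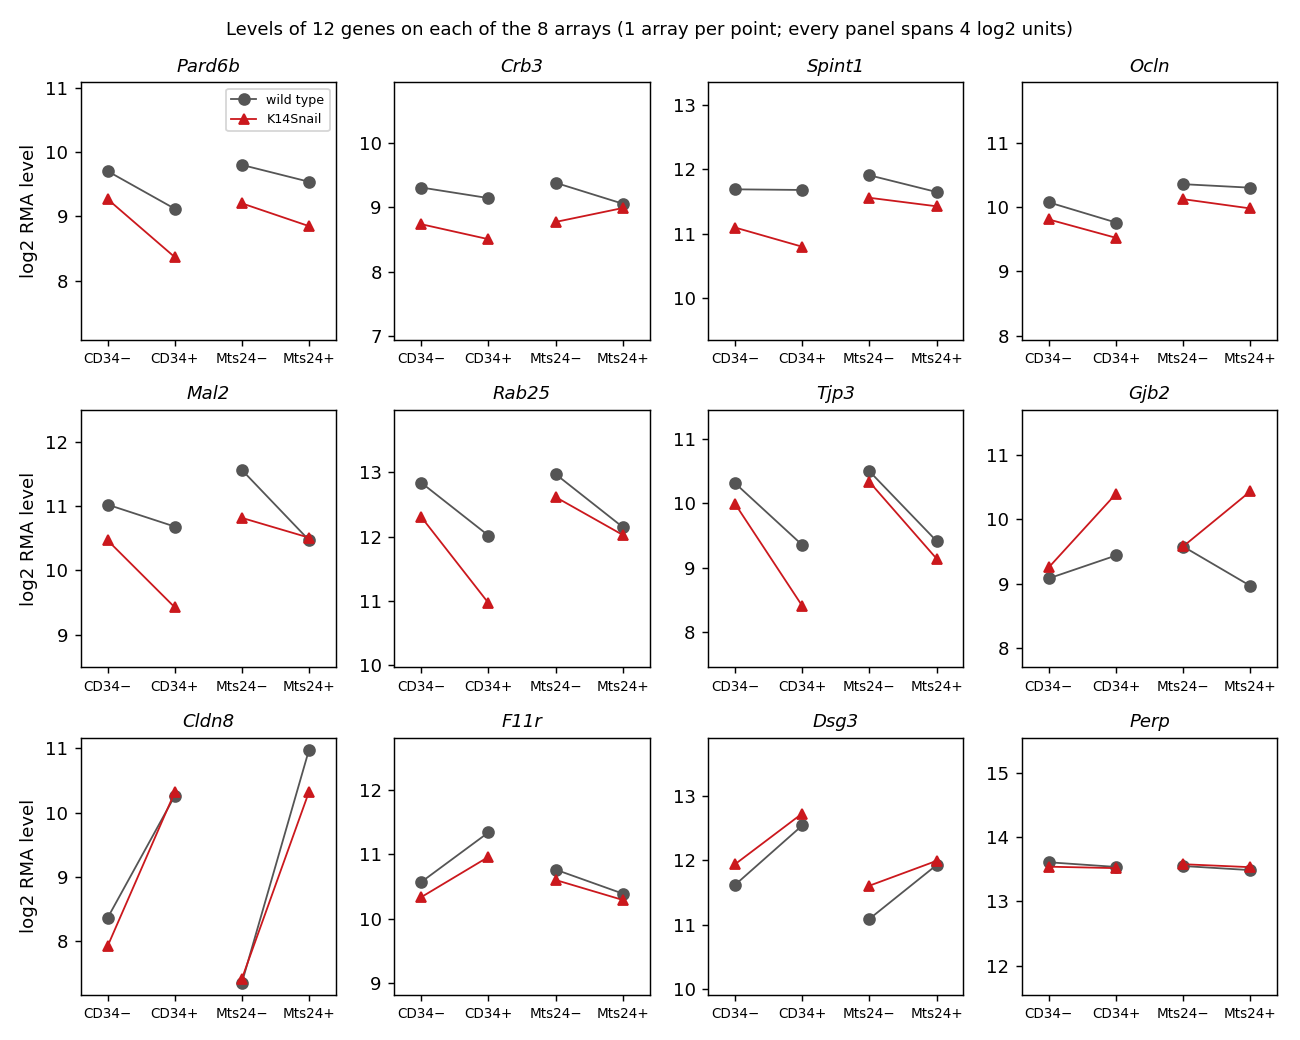
Log2 RMA level (y axis) of 12 members in the 4 sorted fractions (x axis), with 1 array per point, circles for wild type and triangles for K14Snail, and lines that join the negative and positive fraction of a sort. Every panel spans the same 4 log2 units: Pard6b is lower in K14Snail in each fraction, Gjb2 is higher in the positive fractions, Cldn8 follows the fraction more than the genotype, and Perp stays between 13.48 and 13.61.

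The 3 polarity members all had negative differences, and Pard6b was the 1 that fell past the threshold. Of 14 other polarity genes tested, 9 had positive and 5 negative means, with a median of 0.04. Pard6b stood at 9.71 in wild type and 9.27 in K14Snail CD34 negative cells, and at 9.12 and 8.37 in CD34 positive cells. In Mts24 negative cells it stood at 9.80 and 9.20, and in Mts24 positive cells at 9.54 and 8.85. It was thus lower in each of the 4 pairs, by 0.43 to 0.75 log2 units, although the ranges of the genotypes overlap when all 8 arrays are set together.

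Crb3, the small Crumbs protein of the apical membrane, was at 9.31 and 9.15 in wild type CD34 negative and positive cells and at 9.38 and 9.06 in Mts24 negative and positive cells. In K14Snail it was at 8.74, 8.51, 8.77 and 8.99 in the same order, and the values of later genes keep that order. All 4 K14Snail arrays were under all 4 wild type arrays, but in Mts24 positive cells by only 0.07, and the mean of -0.47 ± 0.11 did not pass (adjusted p = 0.128). Arrays of the genotypes failed to overlap, with K14Snail lower, for 2 of 38 members (5.26%), Crb3 and Spint1, and for 1.25% of all genes. The reverse held for 0 members and 1.64% of all genes. Llgl2, a lethal giant larvae homologue of the basolateral complex, was at -0.36 ± 0.09 (adjusted p = 0.142), with -0.66 in the CD34 positive pair and -0.34 to -0.21 in the others.

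Genes of apical trafficking differed from fraction to fraction. Mal2, a membrane protein of the transcytosis route, was at 11.02, 10.68, 11.56 and 10.47 in wild type cells. In K14Snail cells it was at 10.47, 9.43, 10.82 and 10.51, so the Mts24 positive pair differed by 0.04 and the CD34 positive pair by -1.25. Its mean of -0.63 ± 0.20 did not pass (adjusted p = 0.189). Rab25, a GTPase of apical recycling endosomes, was at 12.84, 12.02, 12.97 and 12.15 in wild type and 12.31, 10.97, 12.62 and 12.03 in K14Snail cells. Its differences ran from -1.05 (CD34 positive) to -0.12 (Mts24 positive), with a mean of -0.52 ± 0.15 (adjusted p = 0.175). Ap1m2, the epithelial subunit of the AP-1 clathrin adaptor, was at 0.04 ± 0.09, with 2 pairs on either side of 0.

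Among the surface proteases and their inhibitors Spint1, the inhibitor HAI-1, had the largest difference. It was at 11.69, 11.68, 11.91 and 11.65 in wild type and 11.09, 10.80, 11.56 and 11.42 in K14Snail cells. Each K14Snail array was under every wild type array, and the mean of -0.51 ± 0.12 did not pass (adjusted p = 0.125). The protease prostasin, Prss8, was at -0.30 ± 0.11 and matriptase, St14, which Spint1 restrains, at -0.16 ± 0.07. The second inhibitor, Spint2, was at -0.13 ± 0.08, and Epcam, an adhesion protein that is a matriptase substrate, at -0.09 ± 0.08. None of these passed.

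Sebaceous gland markers had negative median genotype differences in each fraction. The 7 tested of 8 listed markers had median genotype differences of -2.68 (negative) and -2.75 (positive) in the CD34 sort, with 7 of 7 lower in each. In the Mts24 sort they were -0.89 and -0.14, with 6 of 7 lower in each, and 1 of the 7 reached the filter level on all 8 arrays. Their summed log2 level was 11.96 to 13.24 in wild type and 11.17 to 11.83 in K14Snail arrays. Mc5r, 1 of the 7, reached the filter level on wild type arrays alone. It entered the counts through the genotype where it was high, so nothing is read from it. In sorted pools fewer cells of a type and less RNA per cell cannot be told apart, and the part of these markers in the junction results was not tested.

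Tight junction membrane genes were mostly lower by small amounts that did not pass. Occludin, Ocln, was at 10.07, 9.76, 10.36 and 10.30 in wild type and at 9.81, 9.52, 10.12 and 9.98 in K14Snail cells. All 4 differences lay between -0.32 and -0.23, the narrowest band among the genes lower throughout, with a mean of -0.26 ± 0.06 (adjusted p = 0.107). The other members of its protein family were near it in size: Marveld2, tricellulin of the corners where cells meet, was at -0.24 ± 0.07 and Marveld3 at -0.28 ± 0.07. F11r, the junctional adhesion molecule JAM-A, was at -0.22 ± 0.07 and lower in 4 of 4 pairs.

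Claudins, the strand-forming proteins, differed from one another. Cldn1, whose loss opens the epidermal barrier, was at 12.84 to 13.30 in wild type and 13.04 to 13.35 in K14Snail arrays, with a difference of 0.06 ± 0.06. Cldn23 was at 9.11, 8.64, 10.09 and 9.20 in wild type and 9.08, 7.31, 10.01 and 8.65 in K14Snail cells. Its difference was thus -0.03 and -0.08 in the negative fractions and -1.33 and -0.55 in the positive ones, and the K14Snail CD34 positive value lay under the filter level, so that size is uncertain. Cldn3 also had its larger differences in the positive fractions (0.05 and -0.12, then -0.57 and -0.40), while Cldn4 differed by -0.62 in the CD34 positive and 0.40 in the Mts24 positive pair. Cldn8 averaged -0.24 ± 0.14, and no claudin passed.

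Among the cytoplasmic scaffolds Tjp3 (ZO-3) was at 10.32, 9.36, 10.50 and 9.42 in wild type and 9.99, 8.41, 10.34 and 9.14 in K14Snail cells. It was lower in every pair, by 0.17 to 0.95, for a mean of -0.43 ± 0.14 (adjusted p = 0.191). Cingulin, Cgn, which tethers the junction to actomyosin, was at -0.31 ± 0.13, and Tjp1 (ZO-1) at -0.06 ± 0.08.

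The tested desmosomal members had mean differences close to 0 or positive, and their distance from the polarity genes was not tested. Of 5 other desmosome genes tested, 3 had negative and 2 positive means, with a median of -0.19. Over the 4 fractions the differences of Dsc3, Dsp, Pkp1, Pkp3, Jup and Perp all lay between -0.22 and 0.19. Desmoplakin, Dsp, which ties the plaque to keratin, was at 13.45 to 13.73 in wild type and 13.35 to 13.71 in K14Snail arrays, with a difference of -0.05 ± 0.06. Plakoglobin, Jup, was lower in each of the 4 pairs, by 0.07 to 0.22 (-0.14 ± 0.06, adjusted p = 0.26).

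Dsg3, the desmoglein of basal and bulge keratinocytes and the pemphigus vulgaris antigen, was at 11.62, 12.54, 11.09 and 11.93 in wild type and 11.94, 12.73, 11.60 and 11.99 in K14Snail cells. It was higher in 4 of 4 pairs, by 0.06 to 0.52, with a mean of 0.27 ± 0.09 that did not pass (adjusted p = 0.191). Dsg2 differed by 0.79 in the CD34 positive pair, by 0.47 in the Mts24 negative pair, and by 0.00 and -0.08 in the others. Dsc2 differed by 0.86 in the Mts24 positive pair and by -0.20 to 0.08 elsewhere. The catenins, partners of the cadherins, had small positive means: 0.10 ± 0.05 for Ctnna1, 0.08 ± 0.06 for Ctnnb1 and 0.13 ± 0.08 for Ctnnd1. E-cadherin itself, Cdh1, named here after its value was seen, was at 0.05 ± 0.05 (adjusted p = 0.623).

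Connexins, the subunits of gap junction channels, split by member. Gja1 (connexin 43) was at 12.00, 11.82, 11.87 and 11.34 in wild type and 11.73, 11.33, 11.64 and 10.77 in K14Snail cells. It was lower in all pairs, by 0.23 to 0.57, with a mean of -0.39 ± 0.08 (adjusted p = 0.103). Gjb2 (connexin 26), known to rise in wounded and hyperproliferative epidermis, was at 9.08, 9.44, 9.58 and 8.97 in wild type and 9.25, 10.40, 9.58 and 10.44 in K14Snail cells. The negative pairs differed by 0.17 and 0.00 and the positive pairs by 0.96 and 1.47, so the K14Snail positive arrays stood above all the others. The mean of 0.65 ± 0.25 did not pass (adjusted p = 0.236). Gjb6 (connexin 30) reached the filter level on 2 arrays, the K14Snail CD34 positive and Mts24 positive ones at 8.17 and 8.04, and lay between 6.89 and 7.59 on the rest. It entered the test through the group where it was high, so its difference is a description.

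**Figure D2:**
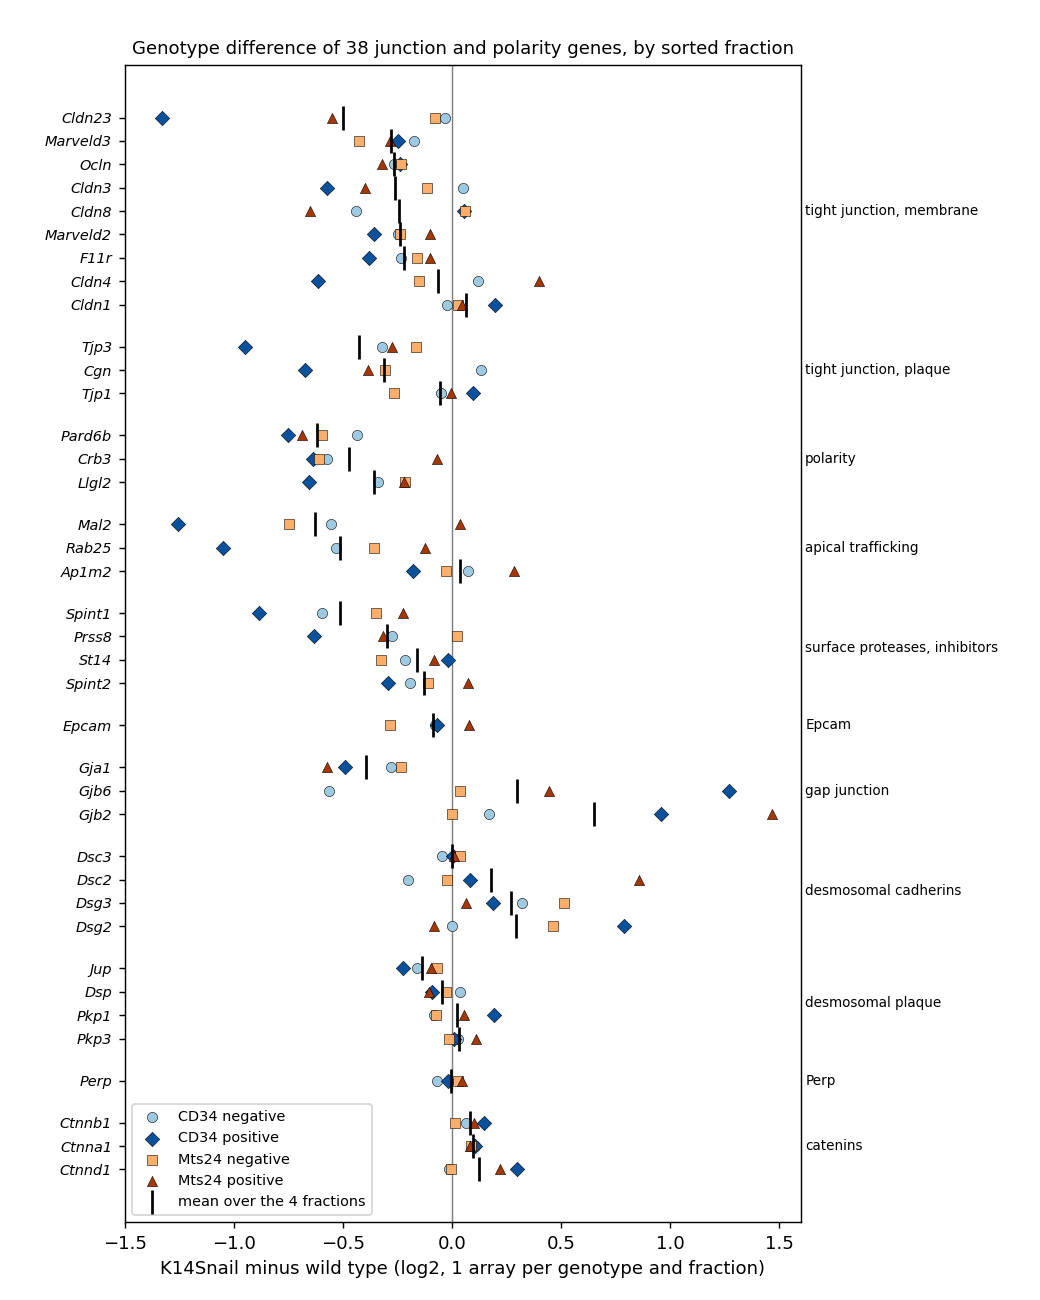
K14Snail minus wild type (x axis, log2 units) for each of the 38 tested members (y axis, grouped by role), with 1 symbol per sorted fraction and a vertical tick for the mean of the 4. Polarity and trafficking genes lie mostly left of 0 while the desmosomal plaque genes cluster at it, and the symbols farthest from 0 are those of the positive fractions, at -1.33 for Cldn23 in CD34 positive and 1.47 for Gjb2 in Mts24 positive cells.

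The upstream sequences of these genes were searched for the letters of the Snail-type E-box, CAGGTG, and of its reverse complement CACCTG. RefSeq sequences of build GRCm38.p6 covered 24 of the 40 members, and the window was the 250 bases before each annotated start. A match was found for 12 of 24 members (50.0%), the untested Cldn7 among them, against 1589 of 8632 tested genes with a sequence (18.4%) and 19.4% of all genes with one. By windows it was found in 14 of 31 for the members (45.2%) and in 17.2% of all 32851. It was found for 6 of the 10 covered genes that were lower in all 4 fractions and for 5 of the 13 other tested members covered. A match describes letters in a window and not a bound site. Both words also fit the general E-box CANNTG, and base composition was not matched between the sets.

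The windows of 5 genes that were lower in all 4 fractions are printed 5′ to 3′ on the gene's strand with the E-box letters in capitals, beside that of Ap1m2, which has the most matches of any member and a genotype difference of 0.04. They are Pard6b at chr2:168080754-168081003 (plus strand), Crb3 at chr17:57061951-57062200 (plus), Rab25 at chr3:88548280-88548529 (minus), Tjp3 at chr10:81291582-81291831 (minus), F11r at chr1:171437311-171437560 (plus) and Ap1m2 at chr9:21312334-21312583 (minus). Each ends at the base before an annotated start, and for Crb3 and Tjp3 that start is the upstream one of 2.
Pard6b: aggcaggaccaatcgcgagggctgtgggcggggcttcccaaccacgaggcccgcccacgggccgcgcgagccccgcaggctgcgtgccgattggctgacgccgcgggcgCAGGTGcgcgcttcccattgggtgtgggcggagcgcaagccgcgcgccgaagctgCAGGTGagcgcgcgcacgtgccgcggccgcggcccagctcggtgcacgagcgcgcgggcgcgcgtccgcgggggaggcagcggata
Crb3: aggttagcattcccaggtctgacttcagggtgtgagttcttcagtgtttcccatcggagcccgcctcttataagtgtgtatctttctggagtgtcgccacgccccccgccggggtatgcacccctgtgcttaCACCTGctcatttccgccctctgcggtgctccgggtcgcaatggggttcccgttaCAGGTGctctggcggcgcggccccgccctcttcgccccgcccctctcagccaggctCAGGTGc
Rab25: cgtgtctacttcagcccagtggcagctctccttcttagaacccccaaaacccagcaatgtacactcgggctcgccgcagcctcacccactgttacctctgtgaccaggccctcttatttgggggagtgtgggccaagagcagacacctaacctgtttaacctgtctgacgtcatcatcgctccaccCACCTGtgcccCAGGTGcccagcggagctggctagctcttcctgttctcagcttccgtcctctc
Tjp3: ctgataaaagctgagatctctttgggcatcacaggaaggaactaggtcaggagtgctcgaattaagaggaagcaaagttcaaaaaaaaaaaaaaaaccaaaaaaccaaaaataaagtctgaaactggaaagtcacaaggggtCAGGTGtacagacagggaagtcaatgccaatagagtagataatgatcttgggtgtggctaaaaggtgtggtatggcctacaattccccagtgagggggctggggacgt
F11r: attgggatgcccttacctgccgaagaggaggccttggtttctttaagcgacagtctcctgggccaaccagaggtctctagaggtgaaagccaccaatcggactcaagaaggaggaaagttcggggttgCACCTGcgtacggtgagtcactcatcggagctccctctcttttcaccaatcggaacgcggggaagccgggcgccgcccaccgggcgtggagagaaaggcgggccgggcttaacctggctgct
Ap1m2: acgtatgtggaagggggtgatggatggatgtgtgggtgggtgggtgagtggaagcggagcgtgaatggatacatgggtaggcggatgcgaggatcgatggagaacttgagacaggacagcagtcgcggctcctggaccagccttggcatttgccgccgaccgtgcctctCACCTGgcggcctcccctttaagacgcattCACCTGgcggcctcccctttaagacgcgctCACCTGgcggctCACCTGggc
Pard6b held 2 matches, the nearer one beginning 86 bases before the start, Crb3 held 3, Rab25 2, Tjp3 1, F11r 1 and Ap1m2 4. Ocln has 2 annotated starts, and the matches lay before the downstream one alone. No match was found before the listed starts of Spint1, Gja1, Jup or Marveld2, which were also lower in all 4 fractions.

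By single fraction, with 1 array per genotype and no test, the members spread most in CD34 positive cells. There 3 of 38 members (7.89%), Cldn23, Mal2 and Rab25, were lower by at least 2-fold, where 2.15% of all tested genes were. Gjb6 was higher by that much (2.8% of all genes were, and 4.94% differed in either direction), but it was tested because of that array, so nothing is read from it. In Mts24 positive cells 1 member did, Gjb2, which was higher: 2.63% of the members, against 1.91% of all genes, of which 1.33% were higher and 0.578% lower. In CD34 negative cells 0 members did, against 0.858% of all genes (0.457% higher and 0.401% lower), and in Mts24 negative cells 0 did, against 0.737% (0.466% higher and 0.271% lower). Member medians were -0.12 and -0.20 in the CD34 pairs and -0.09 and -0.07 in the Mts24 pairs, under the all-gene medians of 0.00, 0.01, 0.01 and 0.07.

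Suprabasal markers such as Krt1, Ivl and Lor were lower in the same pair. All 9 tested suprabasal markers were lower in K14Snail CD34 positive cells, with a median of -1.32, against medians of -0.02, 0.01 and -0.17 in the other pairs. Their summed log2 level was 15.59 in wild type and 14.68 in K14Snail CD34 positive cells, and between 15.39 and 16.15 on the other 6 arrays. In the CD34 positive pair 6 of 7 upper follicle markers were higher in K14Snail and 1 lower (median 0.76). Of 5 tested melanocyte markers 4 were higher there and 1 lower (median 1.02). In the other pairs these medians ran from -0.0031 to 0.09 and from 0.11 to 0.61. Myeloid and Langerhans markers, like Gjb2 and Gjb6, had positive genotype differences in both positive fractions. Of those tested 11 of 11 were higher in K14Snail there (medians 1.37 and 1.37), and 9 of 11 were lower in each negative fraction (-0.49 and -0.09). Their summed level was 11.74 and 11.79 in the wild type positive fractions and 13.25 to 13.96 on the other 6 arrays. Gjb2 had another pattern over the arrays, at 10.40 and 10.44 on the K14Snail positive arrays and 8.97 to 9.58 on the other 6. Lyz2, on the myeloid and Langerhans list, reached the filter level on the K14Snail positive arrays alone. It entered the counts through the groups where it was high, so nothing is read from it. The part of any of these lists in the junction results was not tested.

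**Figure D3:**
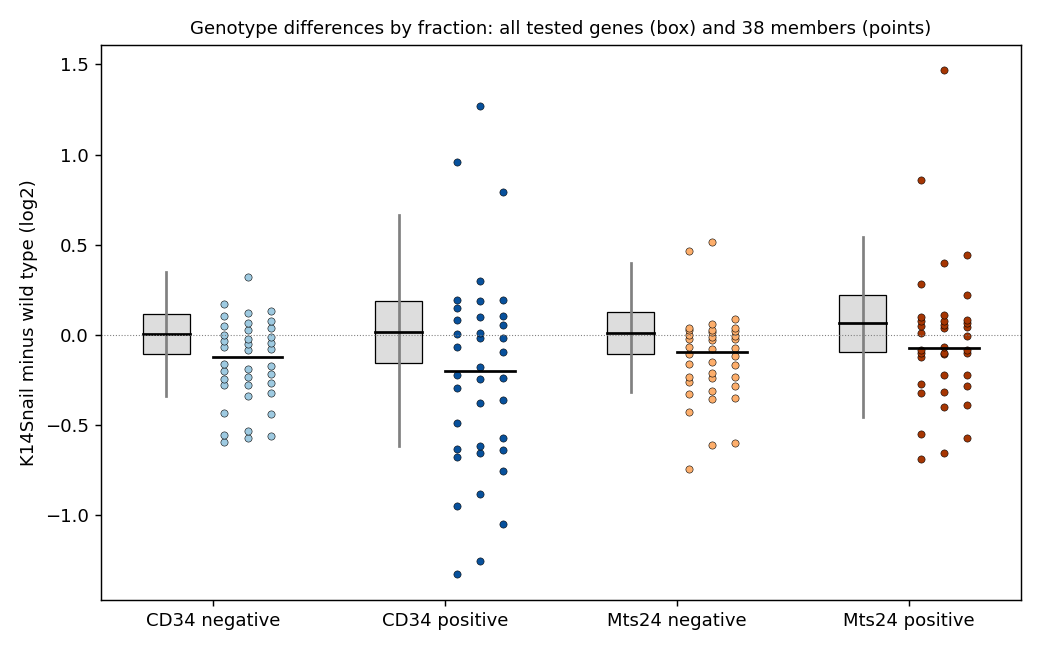
K14Snail minus wild type (y axis, log2 units) in each sorted fraction (x axis) for all 10720 tested genes, drawn as a box from the 25th to the 75th percentile with its median and a line from the 5th to the 95th, and for the 38 members, drawn as points with their median. The member median lies under that of all genes in each fraction, most of all in CD34 positive cells (-0.20 against 0.01), where the points also spread widest.

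The CD34 sort sets bulge-enriched cells against the rest, over 1 pair of arrays from each genotype. In the CD34 positive cells 11 members fell, among them scaffold, polarity and occludin family genes, 6 rose and 21 did not pass. The 17 called make 44.7% of the 38, where 26.8% of all tested genes passed, those that fell make 28.9% against 13.4%, and those that rose 15.8% against 13.4%. The largest falls were those of Tjp3 (-1.27 ± 0.20, limma adjusted p = 0.00673), Cldn23 (-1.12 ± 0.32, adjusted p = 0.0497) and Rab25 (-1.08 ± 0.21, adjusted p = 0.0163). Llgl2 fell by 0.84, Dsg2 by 0.83, Pard6b and Cgn by 0.74 each, Marveld2 by 0.69, Marveld3 by 0.64, Pkp1 by 0.55 and Ocln by 0.30 log2 units. Cldn8 rose most (2.15 ± 0.20, 4.43-fold, adjusted p = 0.00128), and Dsg3 (0.86 ± 0.12), F11r (0.70 ± 0.10), Cldn3 (0.70 ± 0.16), Epcam (0.50 ± 0.11) and Ctnnb1 (0.35 ± 0.08) also rose. With the pool as a random block at its estimated correlation Cldn23 (adjusted p = 0.0578) and Ocln (adjusted p = 0.0511) no longer passed. The count was 12 to 14 without any 1 of the CD34 positive or Mts24 arrays, but 8 without the wild type and 6 without the K14Snail CD34 negative array.

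The Mts24 sort was compared in the same way, and its positive cells were enriched for bulge as well as upper follicle markers. In the Mts24 positive cells 10 members fell, 4 rose and 24 did not pass. The 14 called make 36.8%, where 26.3% of all tested genes passed, those that fell make 26.3% against 13.5%, and those that rose 10.5% against 12.8%. Cldn8 again rose most (3.27 ± 0.20, 9.62-fold, adjusted p = 0.00108), followed by Epcam (0.77 ± 0.11), Dsg3 (0.61 ± 0.12) and Cldn3 (0.61 ± 0.16). Tjp3 (-1.14 ± 0.20), Cldn23 (-1.13 ± 0.32), Cgn (-0.92 ± 0.19), Llgl2 (-0.85 ± 0.13), Gja1 (-0.71 ± 0.11) and Marveld2 (-0.60 ± 0.09) fell. So did Pkp1 (-0.40 ± 0.10) and, by about 0.3 log2 units each, the desmosomal genes Dsc3 (-0.31 ± 0.08, adjusted p = 0.034), Dsp (-0.32 ± 0.08, adjusted p = 0.0394) and Jup (-0.32 ± 0.08, adjusted p = 0.0413). With the pool as a random block at its estimated correlation Dsp (adjusted p = 0.0507), Jup (adjusted p = 0.0565) and Cldn23 (adjusted p = 0.0571) no longer passed. This count rests on single arrays: it was 5 without the wild type Mts24 negative, 3 without the wild type Mts24 positive, 2 without the K14Snail Mts24 negative and 5 without the K14Snail Mts24 positive array. It was 9 without either CD34 negative array, 19 without either CD34 positive array, and 9 with no filter on dim genes.

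Cldn8, a claudin otherwise known from kidney tubules, had the largest difference of any member in both sorts. It was at 8.36 and 10.26 in wild type CD34 negative and positive cells and at 7.92 and 10.32 in those of K14Snail. In the Mts24 sort it was at 7.36 and 10.98 in wild type and 7.42 and 10.33 in K14Snail cells. The 4 positive arrays all lay above the 4 negative ones, and both Mts24 negative values lay under the filter level of 7.70, so the size of that difference is uncertain. Cldn8 passed in both comparisons without any 1 of the arrays and under each other setting run.

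The differences of the 2 sorts share no arrays, but their tests share the error estimate of each gene, which came from the same model of all arrays. Passing in the 2 sorts is therefore not independent, and the overlaps of calls below are a description. Of the 6 members that rose with CD34, 4 (66.7%) also rose with Mts24, which is 100% of the 4 that rose there: Cldn8, Cldn3, Dsg3 and Epcam. Of the 11 that fell with CD34, 6 (54.5%) also fell with Mts24, which is 60% of the 10 that fell there: Tjp3, Cldn23, Cgn, Llgl2, Marveld2 and Pkp1. Bulge markers rose in both sorts too, and their part in these overlaps was not tested. Among all tested genes the shares were 51.2% and 53.6% for rises and 59.7% and 59.2% for falls. Suprabasal markers were lower in both positive fractions (medians -0.93 and -0.65), with 2 of 9 falling and 1 rising in the CD34 sort and 0 falling and 1 rising in the Mts24 sort. T cell markers fell in both positive fractions, 5 of 5 tested in each, where 13.4% (CD34) and 13.5% (Mts24) of all tested genes fell. Cd3d, a T cell marker, reached the filter level on Mts24 negative arrays alone. It entered the test through the group where it was high, so its fall is a description. The part of these lists in the junction results was not tested.

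**Figure D4:**
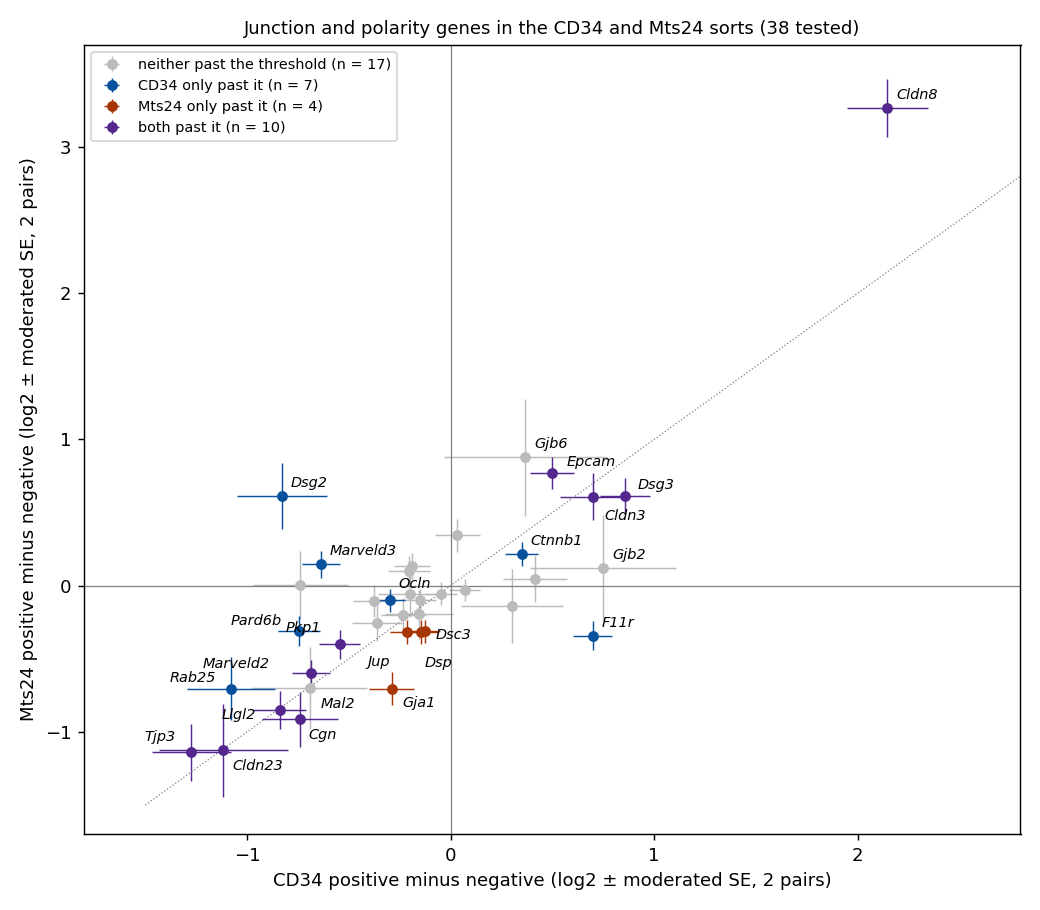
Positive minus negative difference in the CD34 sort (x axis) and in the Mts24 sort (y axis), in log2 units with moderated standard errors, for the 38 tested members, coloured by which comparison passed the threshold; the dotted line marks equal differences. Cldn8 lies far to the upper right at 2.15 and 3.27, Tjp3, Cldn23, Llgl2 and Cgn lie at the lower left, and F11r and Marveld3 lie on opposite sides of the line.

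The difference between the 2 enrichments was tested directly. It passed for 2 of 38 members (5.26%), near the 4.74% of all tested genes, with 1 member higher (2.69% of all genes) and 1 lower (2.05%). F11r was higher in CD34 positive than negative cells, at 10.57 and 11.34 in wild type and 10.33 and 10.96 in K14Snail, and lower in Mts24 positive than negative cells, at 10.76 and 10.39 and at 10.60 and 10.29. The enrichments differed by 1.04 ± 0.14 (limma adjusted p = 0.0175). Marveld3 was at 9.26 and 8.65 in wild type and 9.08 and 8.41 in K14Snail CD34 negative and positive cells, against 9.15 and 9.23, and 8.73 and 8.95, in the Mts24 sort. Its enrichments differed by -0.78 ± 0.13 (adjusted p = 0.033). For Dsg2 the enrichments differed by -1.44 ± 0.31 (adjusted p = 0.0676, not passing): it fell with CD34 and stood at 0.61 ± 0.22 in the Mts24 sort. The count was 1 without the wild type and 3 without the K14Snail CD34 positive array, and 0 without any 1 of the other 6. F11r still passed without either CD34 positive array (adjusted p = 0.033 and 0.0132) and had an adjusted p of 0.0608 to 0.101 without the others. Marveld3 passed without the K14Snail CD34 positive array (adjusted p = 0.0446) and not without the others (adjusted p = 0.073 to 0.148).

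The interaction asked whether the genotype difference was another in positive than in negative fractions. With limma 0 of 38 members and 0% of all genes passed, while 4 members and 1060 of all 10720 genes had an unadjusted p under 0.05. Gjb2 came nearest of the members, with a genotype difference larger by 1.13 ± 0.20 in the positive fractions (adjusted p = 0.208). Cldn23 stood at -0.88 ± 0.27 (adjusted p = 0.373) and Cldn3 at -0.45 ± 0.14 (adjusted p = 0.368). The count was 2 without either CD34 positive array and 4 without either Mts24 positive array, and 0 without any 1 of the 4 negative arrays.

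Other genes of these junctions were counted alongside. Of 62 further claudin, desmosome, polarity, connexin and adherens junction genes on the array 36 were tested. For genotype 0 of 36 passed with limma, where 0.382% of all tested genes did, and the median was -0.01. Their differences ran from -0.68 to 0.53, and the smallest limma adjusted p among them was 0.08. An unadjusted limma p under 0.05 was found for 8 of the 36 and for 2175 of all 10720 tested genes. In the CD34 sort 13 fell (36.1%, against 13.4% of all tested genes) and 4 rose (11.1% against 13.4%). In the Mts24 sort 11 fell (30.6% against 13.5%) and 5 rose (13.9% against 12.8%). With CD34 the paracingulin gene Cgnl1 (1.90 ± 0.08), the multi-PDZ scaffold Mpdz (0.99 ± 0.15) and Patj, a Crumbs complex scaffold (0.41 ± 0.10), rose most. Pkp4 (-1.24 ± 0.15), the channel Panx1 (-1.13 ± 0.11) and the suprabasal desmoglein Dsg1b (-1.12 ± 0.13) fell most. With Mts24 P-cadherin, Cdh3 (0.85 ± 0.15), Mpdz (0.83 ± 0.15) and Cgnl1 (0.61 ± 0.08) rose most, while Gjb5 (-1.71 ± 0.22), Nectin3 (-1.65 ± 0.37) and Dsg1b (-1.34 ± 0.13) fell most. Cgnl1 and Mpdz reached the filter level on 3 arrays each, all of positive fractions, so they entered the test through the group where they were high, and their differences are a description. Close paralogues of Dsg1b can share its probe signal, so its values are uncertain.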

How the data were processed

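RNA from the 8 sorted pools was amplified with a whole-transcript kit, labelled with biotin and hybridised to 1 Affymetrix array each. The authors deposited log2 levels (3.04 to 14.49, which set the scale) summarised by RMA, a tool the submitters' processing notes name. Version and genome build are not given in the sources used here. Of 28874 probe sets 21789 carry 1 gene symbol, 1621 several and 5464 none in the platform annotation, and those with 1 symbol were used, the brightest by mean standing for a gene (999 genes have several). Genes reaching 7.70 on at least 2 arrays were tested (10720). Background was not measured, so values under 7.70 are uncertain in size.

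All tested genes entered linear models (limma 3.58.1, R 4.3.3) with fraction and genotype as terms (3 residual and 2.75 prior degrees of freedom), plus genotype by positive or negative fraction for the interaction (2 residual). P-values were adjusted by Benjamini-Hochberg over all tested genes, threshold 0.05, and errors are moderated standard errors. Genotypes are compared over 4 pairs of arrays and each sort over 2, so p-values measure the spread between these arrays. The pool (genotype by marker) was not a term, because the labels do not say that the fractions of a sort share mice and its estimated correlation of -0.175 would shrink genotype errors; it was an alternative. The model was run on simulated arrays without pool correlation, where only the mean size of the added effects was checked. That check does not bear on the counts of calls. Promoter letters were counted with Python 3.11.15. All 40 members may be named. Of the other junction genes those past the genotype threshold and the 3 largest calls in each direction per sort are. Cdh1 was named outside this rule. Members and lists were chosen with earlier results of these data known.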

Additional observations from a re-analysis of the deposited data

Results flagged for a closer look

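For a pair of tight junction membrane genes, 2 of 38 members (5.26%), the direct test between the enrichments in the 2 sorts passed, near the 4.74% of all tested genes. Without any 1 of 6 of the 8 arrays (all but those of CD34 positive cells) the count was 0. F11r was enriched with CD34 and not with Mts24, with a difference between the enrichments of 1.04, positive in both genotypes. Marveld3 fell with CD34 and did not pass with Mts24 (0.15 ± 0.09, adjusted p = 0.292), with a difference between the enrichments of -0.78, negative in both genotypes. The CD34 and Mts24 sorts used different pools, antibodies and numbers of mice, so fraction and pool cannot be told apart in this contrast.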

How the results depend on the processing

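Settings were changed 1 at a time. Of the members called for genotype (1), 0 were left with the pool as a block at a correlation of 0.2, with quantile normalization once more, and in the CD34 or the Mts24 arrays alone, which leave 1 residual degree of freedom. Leaving out 1 array gave 0 for genotype, 6 to 14 for CD34 (17 with all arrays), 2 to 19 for Mts24 (14), 0 to 3 for the difference between sorts (2) and 0 to 4 for the interaction (0). With no filter the Mts24 count was 9. At 1.5-fold in place of 2-fold the single-fraction counts were 1 and 14 for CD34 negative and positive cells and 3 and 4 for Mts24 negative and positive cells, against 3.29%, 11.3%, 3.34% and 6.88% of all genes. The cause of the leave-one-out changes beyond fewer arrays was not tested. With the pool as a block at its estimated correlation, genotype calls over all genes were 220 in place of 41, and at a correlation of 0.2 they were 6, so the genotype calls over all genes depend on this setting; member counts were 15 and 11 for the sorts at the estimated correlation. The count of members lower in all fractions was 14 to 17 under 9 alternatives chosen after seeing the data. No member called in any comparison reversed its direction under any setting run. With 1 array per group, the number of arrays limits the precision.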

Other observations

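The pair of members under the filter level on every array was left out of the tests. Pkp2, the plakophilin of simple epithelia and heart, was at 7.64 and 7.57 in wild type and K14Snail CD34 positive cells and at 6.80 and 6.55 in the CD34 negative ones. In the Mts24 sort it was at 7.18 and 7.05 in positive and 6.56 and 6.32 in negative cells, so its positive arrays all lay above its negative ones, and K14Snail lay below wild type in each fraction by 0.07 to 0.25. Cldn7 lay between 6.54 and 6.95 on all 8 arrays.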
